A study of Mus musculus with 88 samples.

Results

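The G1 cyclins and Cdk inhibitors described here are 9 genes: the D-type cyclins Ccnd1, Ccnd2 and Ccnd3, the E-type cyclins Ccne1 and Ccne2, the Cip/Kip inhibitors Cdkn1a (p21) and Cdkn1b (p27), and the Ink4 inhibitors Cdkn2a (p16Ink4a and p19Arf) and Cdkn2b (p15). They were taken by gene name from a table of 21942 mouse loci, in which each name stood once, and were followed through all 26 RNA-seq libraries of the series. The series also holds 62 bisulfite samples, which are not analysed here. Its RNA libraries compare mouse embryonic stem cell (ESC) lines derived in different media, XX and XY lines, and fibroblasts.

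In the B6 cross (F1 of 129X1/SvJ and C57BL6), all ESC lines were at passage 3. They were lines c3 and c4 (XX) and c2 and c6 (XY) in 2i, t1 and t3 (XX) and t2 and t6 (XY) in t2i, a4 and a18 (XX) and a1 and a3 (XY) in a2i, and 17 and 46 (XX) and 10 and 16 (XY) in serum. As the study's media are known, 2i holds inhibitors of MEK and GSK3, t2i holds less of the MEK inhibitor, and a2i replaces that inhibitor with one of Src. In the MSM cross (F1 of 129X1/SvJ and MSM/Ms), the ESC lines were 15 and 2 (XX) and 20 and 23 (XY) in 2i, and 8 (XX) and 12 (XY) in serum, labelled S, again at passage 3. Line 15 also gave a culture moved from 2i to serum (2i-S, 14 further passages) and fibroblasts (2i-MEF, passage 5 and 1 further). The remaining libraries were mouse embryonic fibroblasts (MEF) 2 and 4 at passage 1, whose titles and descriptions give opposite sexes, so no sex was used for them. No label names a genetic change, and every cell was an F1 hybrid. Where cultures differ in passage (2i-S, MEF and 2i-MEF), passage and culture cannot be told apart, and the same holds for cross and any batch.

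D-type cyclins bind Cdk4 and Cdk6 and start the phosphorylation of the retinoblastoma protein in G1, and E-type cyclins with Cdk2 carry it on into S phase. Cip/Kip proteins bind cyclin-Cdk complexes and block Cdk2, Ink4 proteins block Cdk4 and Cdk6, and p19Arf, read from the Cdkn2a locus in another frame, stabilises p53. Mouse ESCs are known for a short G1, high cyclin E and little dependence on D-type cyclins, while embryonic fibroblasts in culture are known to accumulate Ink4 and Cip/Kip inhibitors.

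Promoter sequences (250 bases before to 50 after a start site, credited to RefSeq, GRCm38.p6, from which mm10 derives) matched 6 of the 9 genes at 9 start sites. The 5 shown here belong to Cdkn2a and Ccnd3, which had the largest called differences between XX and XY lines, and to Cdkn2b, the neighbour of Cdkn2a. Cdkn2a has an upstream start, from which p19Arf is read, and a downstream start for p16Ink4a. The deposited value merges both transcripts. Capitals mark a match to an E2F motif.
Cdkn2a, upstream start, chr4:89294570-89294869, minus strand: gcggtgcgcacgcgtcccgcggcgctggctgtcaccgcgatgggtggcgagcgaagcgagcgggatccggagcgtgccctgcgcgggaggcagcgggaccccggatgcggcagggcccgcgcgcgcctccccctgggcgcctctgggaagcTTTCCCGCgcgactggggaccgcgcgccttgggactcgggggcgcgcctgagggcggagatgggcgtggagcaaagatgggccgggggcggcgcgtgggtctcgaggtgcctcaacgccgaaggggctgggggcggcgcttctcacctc
Cdkn2a, downstream start, chr4:89282143-89282442, minus strand: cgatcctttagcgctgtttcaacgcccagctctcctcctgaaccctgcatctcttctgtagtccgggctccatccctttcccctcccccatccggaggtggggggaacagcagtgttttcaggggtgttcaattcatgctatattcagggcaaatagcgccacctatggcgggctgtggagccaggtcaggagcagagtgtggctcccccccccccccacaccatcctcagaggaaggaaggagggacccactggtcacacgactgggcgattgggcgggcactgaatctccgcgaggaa
Cdkn2b, chr4:89310983-89311282, minus strand: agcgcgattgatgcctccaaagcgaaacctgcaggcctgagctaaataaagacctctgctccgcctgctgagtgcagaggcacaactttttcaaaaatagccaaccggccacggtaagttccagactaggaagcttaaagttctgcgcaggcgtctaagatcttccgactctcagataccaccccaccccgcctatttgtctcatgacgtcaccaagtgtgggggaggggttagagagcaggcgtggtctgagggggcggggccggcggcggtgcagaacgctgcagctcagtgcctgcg
Ccnd3, upstream start, chr17:47504801-47505100, plus strand: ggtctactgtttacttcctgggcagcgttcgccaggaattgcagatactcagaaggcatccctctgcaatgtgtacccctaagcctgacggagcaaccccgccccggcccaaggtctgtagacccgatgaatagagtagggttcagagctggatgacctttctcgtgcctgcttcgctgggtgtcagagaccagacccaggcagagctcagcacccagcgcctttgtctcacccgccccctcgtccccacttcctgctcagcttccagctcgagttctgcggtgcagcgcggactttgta
Ccnd3, downstream start, chr17:47593217-47593516, plus strand: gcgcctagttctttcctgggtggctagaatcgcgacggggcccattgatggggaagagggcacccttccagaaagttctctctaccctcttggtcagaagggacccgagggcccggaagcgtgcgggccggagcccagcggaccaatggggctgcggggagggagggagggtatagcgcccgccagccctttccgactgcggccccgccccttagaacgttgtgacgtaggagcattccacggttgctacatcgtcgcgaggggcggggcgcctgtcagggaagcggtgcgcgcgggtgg
Motifs were searched on both strands: TTTCCCGC, TTTCGCGC, TTTGCCGC and TTTGGCGC for E2F, CACGTG for the E-box, GGGCGG for the GC box, TATAAA for the TATA box and CCAAT for the CCAAT box. Of the 9 windows, 1 held an E2F match, on the given strand of the upstream Cdkn2a window at position -99 from the start site, against 2.26% of 32851 promoters in the table. GC boxes stood in 8 of the 9 windows and in 35.7% of all promoters. The 2 Cdkn2a windows differ in base content, with 45 and 12 CG pairs upstream and downstream. The Ccnd3 windows hold 15 and 28, the Cdkn2b window 18, and the median over all promoters is 7. A match describes letters only and says nothing of binding.

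Levels are RPKM (reads per kilobase of transcript, scaled to the mapped reads of the library) as deposited, so genes can be compared per length. RPKM summed to 624274 to 934309 per library, and 11234 to 12558 genes reached 1 RPKM. All 11 pluripotency markers checked reached 1 RPKM in all 23 ESC libraries, and 1 of them did in each of the 3 fibroblast libraries. All 16 fibroblast markers reached 1 RPKM in the 3 fibroblast libraries. They did so in the 4 B6 serum lines too, so for these markers the threshold does not separate the labels. Fibroblast markers were also high in the B6 serum lines, with a summed level of 1228 to 1702 RPKM and none of the 16 at 0. Their summed level was 7.02 to 18.7 RPKM in the other 12 B6 lines, with 1 to 6 of the 16 at 0, and 9930 to 11490 RPKM in the 2 MEF libraries. As a median over the 16 markers, the B6 serum lines held 8.53% to 17.3% of the MEF level and the other B6 lines 0.0166% to 0.0673%. The S lines of the MSM cross held 0.619% and 1.93%, and its 2i lines 0.0720% to 0.800%, so that 2i line 20 lay above S line 8. This fibroblast share, times the MEF level of a gene, is given below as the level predicted from fibroblasts. The MEF level is the mean of the 2 MEF libraries, which are of the MSM cross. By the same measure the 2i-MEF library held 173% of the MEF level, while its Ccnd1 read 30.9 RPKM against 125 and 137 in the MEFs. Predicted and subtracted values therefore depend on the fibroblasts taken as reference, and no other reference was tested. The remainder after subtraction was not rescaled for the share removed. Subtracted levels are thus lowered for every gene, most in the B6 serum lines. This raises subtracted differences of 2i, t2i or a2i minus B6 serum. Whether calls after subtraction would hold with rescaling was not tested. In such bulk samples, fewer cells of a type and less RNA per cell cannot be told apart.

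Among the 9 genes, Ccnd3 stood highest in 22 of 23 ESC libraries and Ccne1 in the other, the S XY line 12. In all 3 fibroblast libraries Cdkn1a stood highest. The median over the ESC libraries fell from 341 RPKM for Ccnd3 through 114 each for Cdkn1a and Ccne1, 51.4 for Ccnd1, 34.2 for Cdkn2a, 17.1 for Cdkn1b, 9.25 for Ccne2 and 6.34 for Ccnd2 to 2.76 for Cdkn2b. Neighbours in that order overlap in their ranges over the libraries, including Ccnd3 (146 to 577 RPKM) and Cdkn1a (72.3 to 151). The widest range was that of Ccnd2, from 0.0450 to 75.6 RPKM. Ccnd3 made up 59.7% to 92.9% of the summed D-type cyclin RPKM in ESC libraries and 33.1% to 50.4% in fibroblasts, where Ccnd2 made up 36.8% to 39.3%. Of the E-type cyclin RPKM, Ccne1 made up 87.0% to 98.1% in ESC libraries and 69.3% to 74.5% in fibroblasts. Ccnd3 and Ccne1 thus held the largest part of their class in all 23 ESC libraries.

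**Figure D1:**
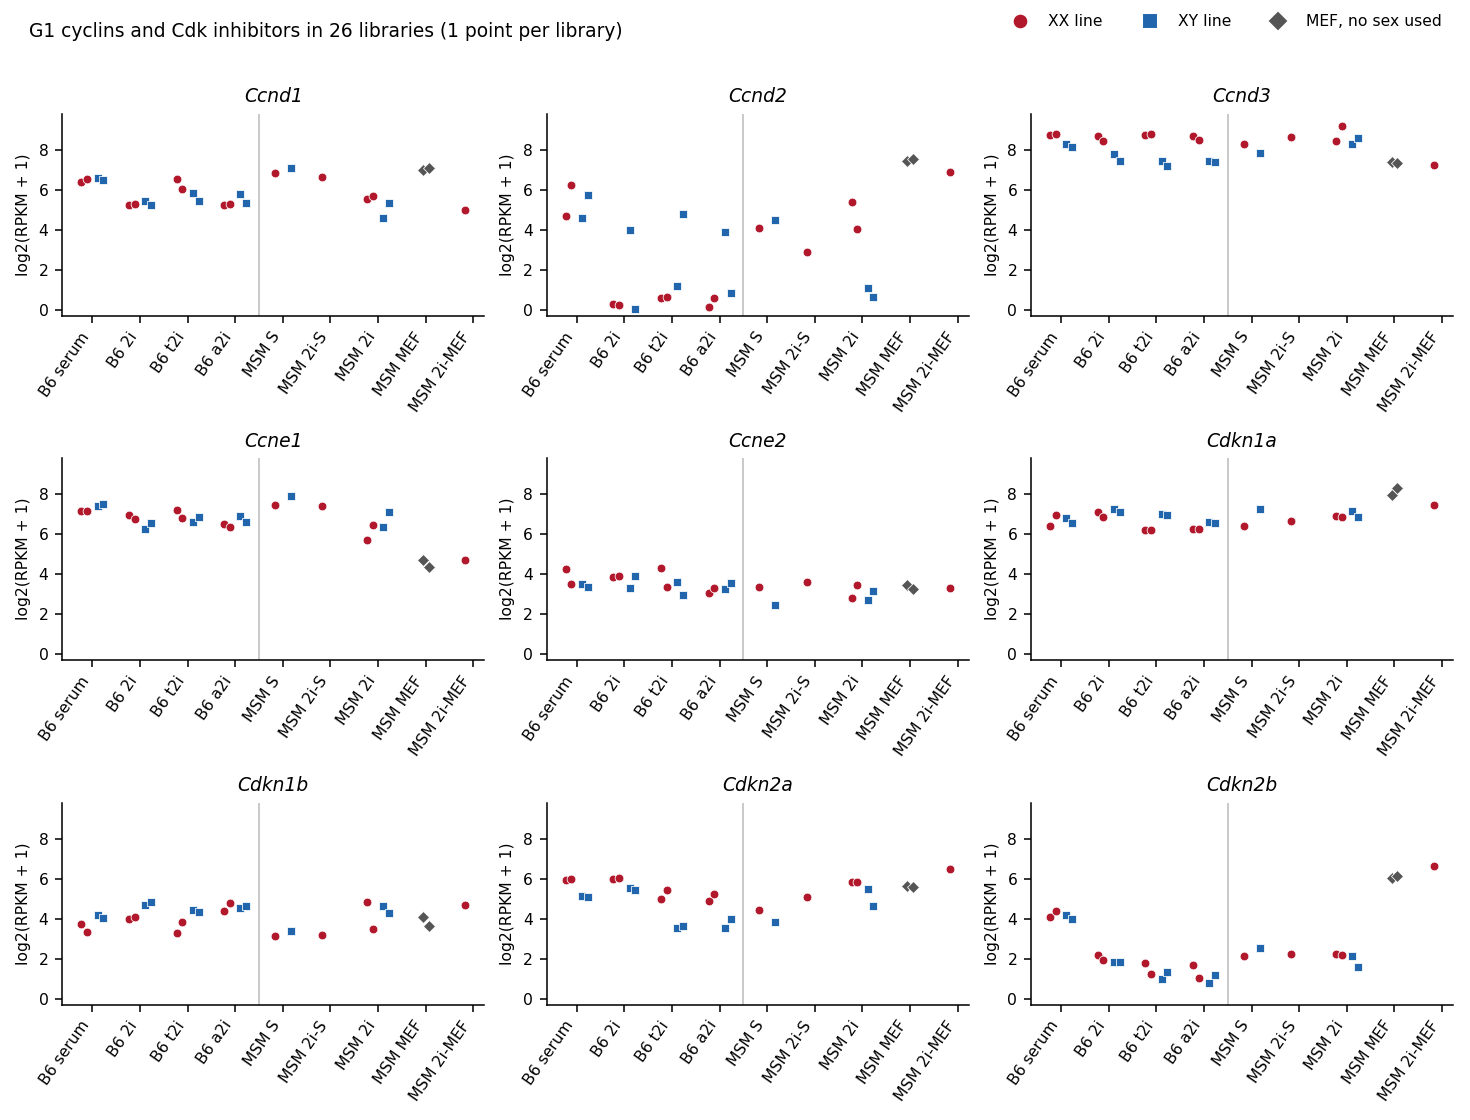
Level of each of the 9 genes as log2(RPKM + 1) in every library, grouped by cross and medium, with 1 point per library (circles XX, squares XY, diamonds MEF). Ccnd3 lies at the top of the ESC groups, Ccnd2 splits between lines of the same medium, and Cdkn2b is high in MEF and 2i-MEF libraries, intermediate in B6 serum lines and low elsewhere.

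In 2i against serum (B6 cross), the D-type cyclins, Ccne1 and Cdkn2b were lower in 2i, and the Cip/Kip inhibitors were higher. Of the 9 genes, 2 rose and 5 fell, with a median log2 difference of -0.41. Over all 13150 genes tested, 16.8% were called higher and 30.7% lower, with a median of -0.09. Differences are limma fits of log2(RPKM + 1), and a gene is called at a Benjamini-Hochberg adjusted p under 0.05 over all genes. Under quantile normalization the calls over all genes turned from 2215 higher and 4042 lower to 3877 and 2764, and their median to 0.08, while the same 7 genes here kept their calls and directions.

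Ccnd1, the D-type cyclin most tied to growth factor signals, read 36.7 and 38.6 RPKM in the 2i XX lines c3 and c4 and 42.7 and 37.0 in the XY lines c2 and c6. In serum it read 83.6 and 92.0 in XX lines 17 and 46, and 94.2 and 87.9 in XY lines 10 and 16. All serum lines lay above all 2i lines, and the fitted difference was -1.19 (SE 0.13, limma adjusted p = 9.3e-06). The level predicted from fibroblasts was 13.4% to 25.8% of Ccnd1 in the serum lines. With it subtracted, the difference was -0.88 (adjusted p = 2.4e-04).

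Ccnd2 read 0.208 and 0.164 RPKM in the 2i XX lines and 15.0 and 0.0450 in the XY lines c2 and c6. The serum lines read 24.8 and 75.6 (XX lines 17 and 46) and 23.4 and 52.9 (XY lines 10 and 16). All serum lines exceeded all 2i lines, though c2 stood far above the other 2i lines, and the difference was -4.19 (SE 0.92, limma adjusted p = 0.0023). Since most 2i values lie under the pseudocount of 1 RPKM, this log2 value understates the change. The level predicted from fibroblasts came to 34.1% of the Ccnd2 level in serum line 46 and to 100.1% in line 10, whose remainder was set to 0. The prediction also exceeded the reading in c6 (134%), so it can be too high. Serum lines 17, 46 and 16 kept 9.46, 49.9 and 21.7 RPKM. After subtraction the SE was 1.15 and the call was lost (-2.31, adjusted p = 0.117).

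Ccnd3, the main D-type cyclin of these lines, was lower in 2i than in serum within each sex. It read 410 and 341 RPKM in the 2i XX lines against 426 and 446 in serum, and 218 and 175 in the 2i XY lines against 316 and 279 in serum. The media did not overlap within a sex but did across sexes, and the difference was -0.41 (SE 0.09, limma adjusted p = 0.0031). Ccne1 read 123 and 107 RPKM in the 2i XX lines and 75.3 and 92.7 in the XY lines, against 145, 143, 167 and 180 in serum lines 17, 46, 10 and 16. No 2i line reached a serum line, and the difference was -0.68 (SE 0.11, limma adjusted p = 2.2e-04). Ccne2, the minor E-type cyclin, read 9.04 to 14.0 RPKM in 2i and 9.23 to 18.3 in serum, overlapping ranges with a fitted difference of 0.08 (SE 0.23, limma adjusted p = 0.79).

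Cdkn1a, the p21 inhibitor and a p53 target, read 136, 116, 151 and 136 RPKM in 2i lines c3, c4, c2 and c6, and 84.4, 123, 110 and 93.1 in serum lines 17, 46, 10 and 16. The groups overlapped at c4 and line 46. Cdkn1a rose by 0.40 (SE 0.11, limma adjusted p = 0.0085). Since the level predicted from fibroblasts was 28.3% to 52.1% of Cdkn1a in serum, subtracting it widened the difference to 1.06 (adjusted p = 7.1e-05). The missing rescaling is part of this widening. Cdkn1b, the p27 inhibitor, read 14.8 and 15.8 RPKM in the 2i XX lines and 24.9 and 27.5 in the XY lines. In serum it read 12.5 and 8.91 in XX and 17.1 and 15.5 in XY lines, below the 2i lines of the same sex in each case. The difference was 0.58 (SE 0.14, limma adjusted p = 0.0047).

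Cdkn2a read 62.2 and 63.8 RPKM in the 2i XX lines and 60.7 and 63.3 in the serum XX lines. In XY lines it read 45.9 and 42.8 in 2i and 34.3 and 32.9 in serum. The difference of 0.21 (SE 0.12, limma adjusted p = 0.17) did not pass, but it did after fibroblast subtraction (0.44, adjusted p = 0.0099) and when only the 2i and serum libraries were fitted (0.21, adjusted p = 0.0495). Missing rescaling after subtraction by itself raises the first of these values. Cdkn2b, the TGF-beta induced p15 inhibitor, read 3.50, 2.76, 2.55 and 2.55 RPKM in 2i lines c3, c4, c2 and c6, against 15.7, 19.9, 17.4 and 14.6 in serum lines 17, 46, 10 and 16. The groups were far apart, with a difference of -2.22 (SE 0.18, limma adjusted p = 6.1e-07). The level predicted from fibroblasts was 36.2% to 79.4% of Cdkn2b in serum and left 3.00 to 10.3 RPKM. The difference was then -1.13 (adjusted p = 0.0031).

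**Figure D2:**
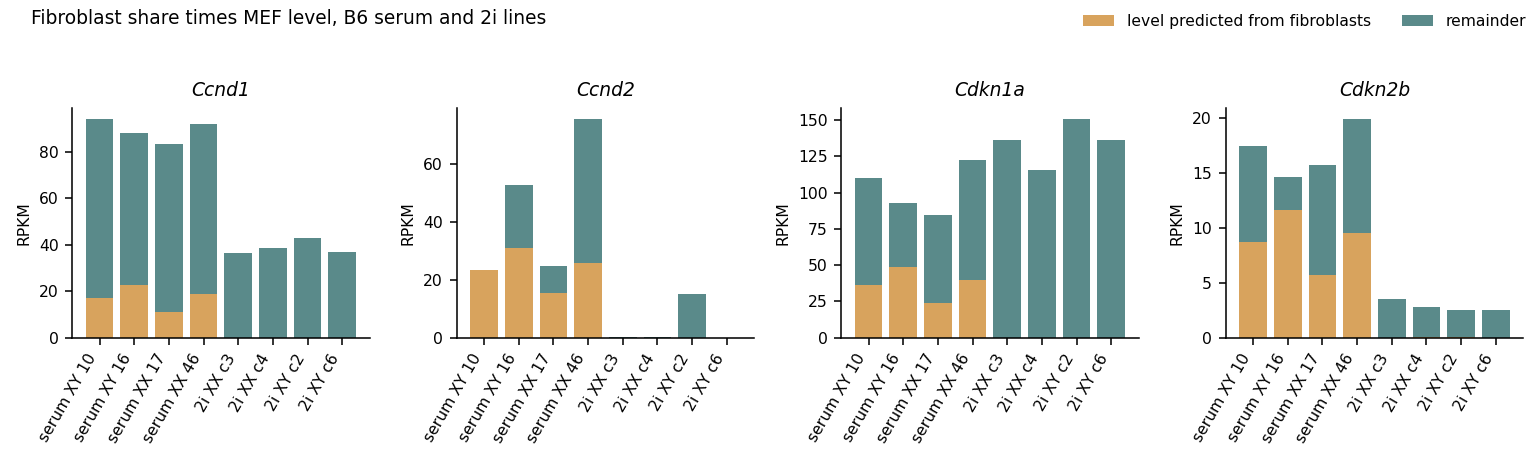
Bars give RPKM of 4 genes in the B6 serum and 2i lines, split into the level predicted from the fibroblast share of each library and the remainder, with 1 bar per library. Where the prediction exceeded the reading, it is drawn only up to the reading. In serum line 10 the predicted part takes all of Ccnd2, and in the 2i lines it takes at most 0.996% of Ccnd1, Cdkn1a and Cdkn2b, but 25.9%, 45.2% and all of the low Ccnd2 of c3, c4 and c6.

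Of 23 Cdk partners, pocket proteins and E2F genes, 5 rose and 4 fell in 2i against serum, with a median of -0.12. Cdk4 (0.29, SE 0.07, adjusted p = 0.0051) and Cdk2 (0.47, SE 0.07, adjusted p = 9.6e-05) rose in the limma fit, and Cdk6 did not pass (-0.30, adjusted p = 0.16). The other inhibitors split: Cdkn1c (p57, an imprinted gene) fell by 2.66 on the log2 scale (SE 0.15, adjusted p = 2.4e-08), from 12.9 to 23.3 RPKM in serum to 0.479 to 4.34 in 2i, while Cdkn2c (0.49, adjusted p = 0.033) and Cdkn2d (0.52, adjusted p = 0.0027) rose. Among the pocket proteins, which hold E2F factors in check, Rbl1 rose (0.53, adjusted p = 7.3e-04), and Rb1 (-0.55, adjusted p = 0.13) and Rbl2 (-0.03, adjusted p = 0.90) did not pass, nor did E2f1 (-0.18, adjusted p = 0.19).

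Of 20 E2F-driven S phase genes tested, 7 rose and none fell (median 0.17), including Prim1 (a primase subunit, 0.45), Tk1 (thymidine kinase, 0.42) and Tyms (thymidylate synthase, 0.37). Of 18 mitotic genes 5 rose and none fell (median 0.03), such as Kif20a (0.43) and Aurka (0.39). Of the growth signals upstream of D-type cyclins, 2 of 19 genes rose and 12 fell in 2i (median -0.80), led by the immediate early genes Fos (-6.07), Egr1 (-5.65) and Jun (-3.61). Myc, which raises G1 cyclins and represses inhibitors, fell by 2.27 on the log2 scale (SE 0.42, limma adjusted p = 7.3e-04). Of 23 p53 targets other than Cdkn1a, 2 rose and 7 fell (median -0.05), where 16.8% of all genes were called higher and 30.7% lower (median -0.09). Among those that fell were Fas (-2.35), Perp (-2.05) and Mdm2 (-0.70, adjusted p = 6.0e-04). Trp53 itself differed by 0.05 (adjusted p = 0.71). Of 15 tested regulators of the Ink4a/Arf locus 5 rose and 6 fell (median 0.04), including Bmi1 (0.91), which represses the locus, and Ets1 (-1.69) and Id1 (-3.17). All 16 fibroblast markers fell beside these lists, and the part of fibroblast RNA in the list differences was not tested.

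t2i against 2i asked what a lower MEK inhibitor level does. Ccnd1 was higher in t2i, and Cdkn1a and Cdkn2a were lower. Thus 1 of the 9 genes rose and 2 fell (median -0.18), where 4.19% of all genes were called higher and 3.89% lower, with a median of 0.01. Ccnd1 read 91.9 and 65.4 RPKM in the t2i XX lines t1 and t3 and 56.5 and 42.3 in the XY lines t2 and t6. In 2i it read 36.7 and 38.6 in XX and 42.7 and 37.0 in XY lines, so the larger rise was in XX lines. The t2i line t6 lay just below the 2i line c2 at 42.7, and the difference was 0.66 (SE 0.13, limma adjusted p = 0.0091). Cdkn2a fell most: it read 31.1 and 42.1 RPKM in the XX lines and 10.7 and 11.3 in the XY lines. All t2i lines lay below all 2i lines, with a difference of -1.35 (SE 0.12, limma adjusted p = 1.6e-04). Cdkn1a read 72.3 and 72.3 RPKM in the XX lines t1 and t3 and 130 and 122 in the XY lines. In 2i it read 136 and 116 in XX and 151 and 136 in XY lines, so the larger fall was in XX lines. Both t2i XY lines lay above the 2i XX line c4. For neither Ccnd1 nor Cdkn1a did the difference between the sexes in this effect pass the test. Cdkn1a fell by 0.49 on the log2 scale (SE 0.11, limma adjusted p = 0.016). That call was lost without c3, t1, c2 or t6, with adjusted p of 0.063, 0.050, 0.060 and 0.063 in turn, and also without a filter on low values (adjusted p = 0.051). Cdkn1b (-0.43, adjusted p = 0.083) and Cdkn2b (-0.61, adjusted p = 0.061) did not pass, although Cdkn1b did without t3 (-0.57, adjusted p = 0.027) and Cdkn2b did under median-of-ratios scaling (-0.62, adjusted p = 0.049).

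a2i against 2i asked what replacing the MEK inhibitor with a Src inhibitor does. Here 3 inhibitors were lower and no cyclin passed. None of the 9 genes rose and 3 fell (median -0.08), where 7.94% of all genes were called higher and 5.85% lower, with a median of 0.02. Cdkn2a read 28.9 and 36.7 RPKM in the XX lines a4 and a18 and 10.7 and 14.8 in the XY lines a1 and a3. All a2i lines lay below all 2i lines, and the difference of -1.33 (SE 0.12, limma adjusted p = 3.1e-05) stood beside -1.35 in t2i. Cdkn1a read 75.7, 74.7, 97.4 and 95.1 RPKM in a4, a18, a1 and a3, below every 2i line, and differed by -0.65 (SE 0.11, limma adjusted p = 0.0018). Cdkn2b read 2.26, 1.01, 0.737 and 1.24 RPKM in the same order, also below every 2i line, and differed by -0.76 (SE 0.18, limma adjusted p = 0.014). Without c3, a18 or a1 the call on Cdkn2b was lost (adjusted p 0.054, 0.053 and 0.060), as it was with no filter on low values (adjusted p = 0.052). Ccnd1 read 36.6, 37.8 and 39.5 RPKM in a4, a18 and a3 and 54.6 in a1, with a difference of 0.10 (limma adjusted p = 0.69).

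t2i and a2i share 2i as their comparator, so their values stand side by side here without a test between them. The direct comparison of a2i with t2i called none of the 9 genes (limma; 3 had an unadjusted p under 0.05), where 0.707% of all genes were called higher and 0.297% lower. The largest differences were those of Cdkn1b (0.61, SE 0.14, adjusted p = 0.064) and Ccnd1 (-0.56, SE 0.13, adjusted p = 0.065). Without t3 both passed (Cdkn1b 0.75, adjusted p = 0.024, and Ccnd1 -0.68, adjusted p = 0.031), and without a4 Cdkn1b did (0.71, adjusted p = 0.0499). With all lines in the fit, neither the Ccnd1 nor the Cdkn1b level was shown to differ between t2i and a2i lines.

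Ccnd2 split the lines within each of the 3 inhibitor media. It read 0.0854 to 0.553 RPKM in all 6 XX lines of 2i, t2i and a2i, with a median of 0.354. Among the 6 XY lines it read 15.0 in c2, 26.4 in t6 and 13.9 in a1, and 0.0450 in c6, 1.26 in t2 and 0.807 in a3. So in each medium 1 XY line read above 10 RPKM and the other below 2 RPKM. Neither t2i (0.65, SE 0.92, limma adjusted p = 0.74) nor a2i (0.22, SE 0.92, adjusted p = 0.92) differed from 2i in Ccnd2 beyond this spread. The fibroblast share was 0.0372% in c2, 0.0166% in t6 and 0.0503% in a1, and the level predicted from fibroblasts was 0.446%, 0.113% and 0.652% of their Ccnd2.

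Around these genes, Cdkn1c was higher in t2i (1.46, SE 0.15, limma adjusted p = 3.3e-04) and a2i (1.20, SE 0.15, adjusted p = 3.7e-04) than in 2i, and Cdkn2c was lower in t2i (-0.65, adjusted p = 0.038). In total 1 of 23 Cdk partners, pocket proteins and E2F genes rose and 1 fell in t2i (median 0.01), and 2 rose and none fell in a2i (median -0.04). Cdk4, Cdk6, Cdk2, Cdkn2d, Rb1, Rbl1, Rbl2, E2f1, Trp53 and Myc did not pass in either comparison. Mdm2 fell in a2i (-0.49, adjusted p = 0.022). Of 23 p53 targets 1 rose and 3 fell in t2i (median -0.22), and 3 rose and 8 fell in a2i (median -0.27), with Eda2r (-0.45) and Ccng1 (-0.33) lower in t2i and Gdf15 (-0.67) and Phlda3 (-0.61) in a2i. Of 15 regulators of the Ink4a/Arf locus, 1 rose and 3 fell in each medium. The polycomb genes Bmi1 (-0.64 in t2i, -0.80 in a2i) and Cbx8 (-1.0, -1.16), known as repressors of the locus, fell, as did Ets2 (-0.53, -0.38), and Id1 rose (1.26, 1.44). Other polycomb genes of the list did not pass in either medium. These were Ezh2 (0.22, 0.20), Cbx7 (0.01, 0.15), Suz12 (-0.32, -0.09), Eed (-0.16, -0.16) and Kdm2b (-0.26, -0.38). Of the growth signal list, 4 of 19 rose and none fell in t2i, and 7 rose and 1 fell in a2i, led in both by Socs3 (0.94, 1.28), a STAT3 target. Of 20 S phase genes 1 rose and none fell in t2i, and 1 rose and 2 fell in a2i. Of 18 mitotic genes, Kif20a fell in both (-0.39, -0.40) and no other passed.

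Against serum, t2i lines had 6 of the 9 genes lower and none higher (15.3% of all genes were called higher and 28.5% lower). a2i lines had 6 lower and 1 higher (12.4% and 25%, with all serum lines shared with the comparison of 2i). In t2i these were Ccnd1 (-0.53), Ccnd2 (-3.54), Ccnd3 (-0.45), Ccne1 (-0.43), Cdkn2a (-1.15) and Cdkn2b (-2.82). In a2i the same 6 fell (-1.09, -3.97, -0.49, -0.70, -1.13 and -2.98), and Cdkn1b rose (0.75, SE 0.14, limma adjusted p = 0.0011). After fibroblast subtraction the call on Ccnd2 was lost in both (adjusted p = 0.26 and 0.17) and that on Ccnd1 in t2i (-0.22, adjusted p = 0.21). Subtraction also turned Cdkn1a from -0.09 to 0.57 in t2i (adjusted p = 0.0057) and from -0.25 to 0.41 in a2i (adjusted p = 0.034). The remainder was not rescaled, which raises each of these subtracted differences, and the calls were not tested with rescaling. Without serum line 17 Cdkn1a was called lower in a2i (-0.39, adjusted p = 0.0059).

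**Figure D3:**
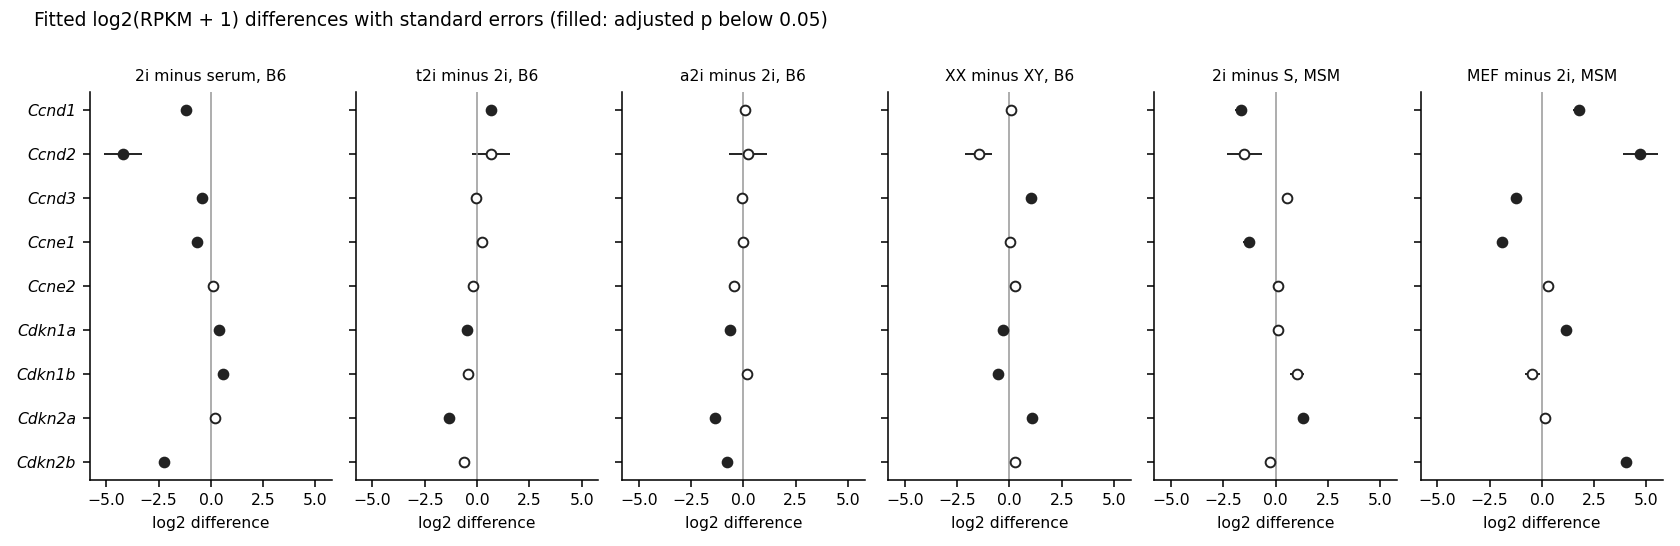
Fitted log2(RPKM + 1) difference of each gene in 6 comparisons, with bars of 1 standard error and filled points where the limma adjusted p was under 0.05. Ccnd1 fell in 2i against serum in both crosses, Cdkn2a fell in t2i and a2i, and Ccnd2 carried the widest errors.

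In the B6 cross, 4 genes differed by sex over all media: Ccnd3 and Cdkn2a were higher and Cdkn1a and Cdkn1b lower in XX lines. All 4 lie on autosomes (chromosomes 17, 4, 17 and 6). With 2 of 9 genes higher and 2 lower (median 0.05), the share compares with 21.4% of all genes higher and 20% lower (median -0.01). Ccnd3 read 341 to 446 RPKM in the 8 XX lines (median 421) and 146 to 316 in the 8 XY lines (median 174), without overlap. The difference was 1.03 (SE 0.07, limma adjusted p = 1.5e-07). Cdkn2a read 28.9 to 63.8 RPKM in XX lines (median 51.4) and 10.7 to 45.9 in XY lines (median 23.8). Those ranges overlap across media but in no single medium, and the difference was 1.08 (SE 0.08, limma adjusted p = 6.6e-07).

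Cdkn1a read 72.3 to 136 RPKM in XX lines (median 80.0) and 93.1 to 151 in XY lines (median 116), and differed by -0.33 (SE 0.08, limma adjusted p = 0.0036). XX lines lay below XY lines of the same medium in t2i and a2i, while in 2i and serum the sexes touched or overlapped. Cdkn1b read 8.61 to 26.3 RPKM in XX lines (median 14.0) and 15.5 to 27.5 in XY lines (median 21.1), and differed by -0.54 (SE 0.10, limma adjusted p = 8.5e-04). Here the sexes overlapped in a2i only. These 4 calls held in every alternative that was run for this comparison. Fibroblast subtraction and the replicate block were not among those, although serum lines are included. With the predicted fibroblast level removed, Cdkn1a in serum left 60.5 and 82.5 RPKM in XX lines 17 and 46. In XY lines 10 and 16 it left 73.9 and 44.6 RPKM, and the call on Cdkn1a was not tested on these values. Ccnd2 (-1.47, SE 0.65, adjusted p = 0.088) did not pass, but did without c6, t2 or a3 (adjusted p 0.018, 0.024 and 0.037). Ccne2 (0.27, adjusted p = 0.20) passed without t3 (adjusted p = 0.049), and Cdkn2b (0.27, adjusted p = 0.11) without a18 (adjusted p = 0.032).

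**Figure D4:**
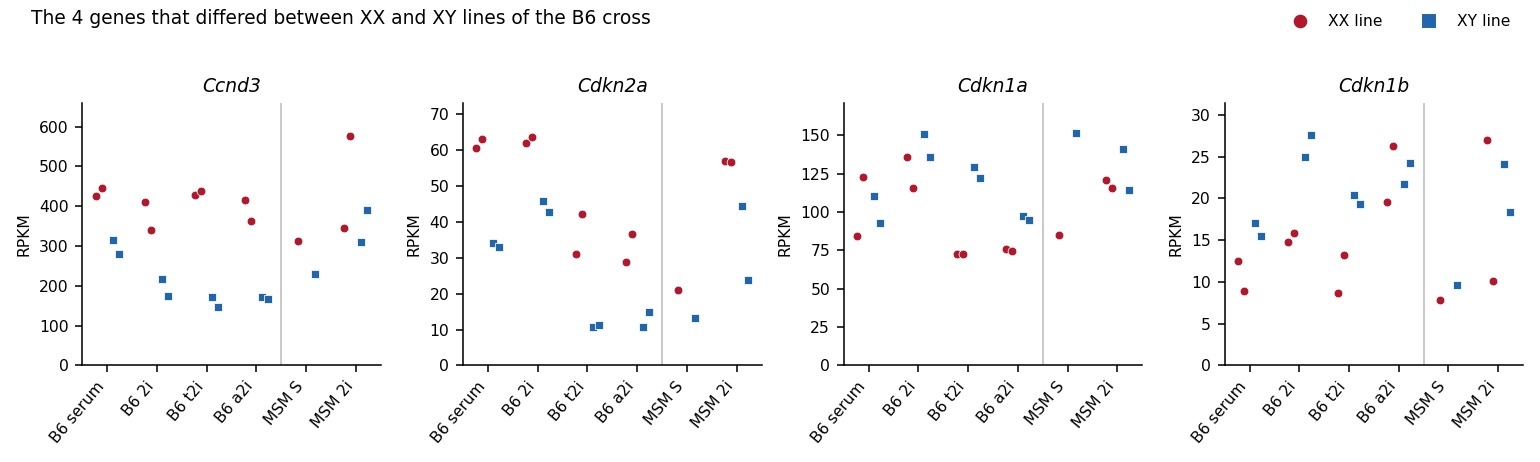
RPKM of Ccnd3, Cdkn2a, Cdkn1a and Cdkn1b in XX (circles) and XY (squares) ESC lines by cross and medium, with 1 point per line and axes from 0. Ccnd3 and Cdkn2a of XX lines lie above those of XY lines in each B6 medium.

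Genes near Ccnd3 were compared with it. Of 17 other genes within 500 kb, the median XX minus XY difference was -0.07, and 4 reached 0.5 on the log2 scale in either direction. Usp49 came nearest to Ccnd3 (0.95), and Bysl, which overlaps Ccnd3, had the highest correlation with it (Pearson r = 0.78 over 16 libraries) and a difference of 0.26 (SE 0.06, limma adjusted p = 0.0052). The sources used here do not say whether the authors' counting used the strand of the kit, so reads of Ccnd3 and Bysl cannot be told apart where they overlap. The same holds for Ccnd1 with Oraov1 and Ccne2 with Ints8. At the Cdkn2a locus on chromosome 4, Cdkn2b differed by 0.27 and Mtap, the other neighbour within 500 kb, by 0.30.

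The XX to XY difference of Cdkn2a widened in t2i. From 2i to t2i it fell from 62.2 and 63.8 to 31.1 and 42.1 RPKM in XX lines, and from 45.9 and 42.8 to 10.7 and 11.3 in XY lines, and the sexes differed in this effect by 1.14 (SE 0.23, limma adjusted p = 0.038). This was 1 of the 9 genes higher and none lower (limma; 4 had an unadjusted p under 0.05), where 0.890% of all genes were called higher and 0.373% lower. The call was lost under quantile normalization (1.11, adjusted p = 0.061), under median-of-ratios scaling (1.12, adjusted p = 0.053), with no filter (1.14, adjusted p = 0.093) and without any of c3, c4, t3, c2, c6, t2 or t6, where the difference stood between 0.93 and 1.19 with adjusted p of 0.085 to 0.148. For a2i against 2i it was 0.81 (SE 0.23, adjusted p = 0.067). None of the 9 genes passed in that comparison (limma; 3 with an unadjusted p under 0.05, and 3.31% of all genes higher and 1.62% lower) or in that of 2i against serum (1 with an unadjusted p under 0.05, and 3.15% and 5.02%). Ccne1 came close in both, at 0.72 (adjusted p = 0.061) for 2i against serum and -0.76 (adjusted p = 0.063) for a2i against 2i, and passed under median-of-ratios scaling (adjusted p = 0.038 and 0.041).

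Among other cell cycle genes, XX lines had lower Cdk6 (-0.95, SE 0.12, limma adjusted p = 4.6e-05), Cdkn1c (-0.35, adjusted p = 0.019) and Trp53 (-0.22, adjusted p = 0.021), and higher Cdkn2c (0.78, SE 0.12, adjusted p = 2.4e-04). Cdk4 (0.00), Cdk2 (-0.02), Cdkn2d (-0.06), Rb1 (0.30), Rbl1 (0.14), Rbl2 (-0.05), E2f1 (0.19), Mdm2 (0.04) and Myc (-0.56) did not pass. Of the 23 Cdk partners, pocket proteins and E2F genes 3 rose and 4 fell in XX lines, and of the 20 S phase genes 5 rose and none fell, with Rrm2 (0.42) and the X-linked Pola1 (0.33) leading. Of 18 mitotic genes 3 rose and 1 fell. Of the 23 p53 targets 7 rose and 1 fell, where 21.4% of all genes were called higher and 20% lower. Pmaip1 (1.15) and the X-linked Eda2r (0.91) were among those that rose. Of the 15 regulators of the Ink4a/Arf locus 7 rose and 1 fell, with Ets2 (1.33), Tbx3 (1.05), Cbx8 (0.95) and Bmi1 (0.61) the largest. Of the 19 growth signals 4 rose and 5 fell, the Wnt targets Sp5 (-1.06) and Axin2 (-1.02) being lower. Of the 11 pluripotency markers 8 rose and 1 fell (median 0.34), with Nanog (0.96), Dppa5a (0.63) and Fgf4 (0.58) the largest, and the part of these in the differences by sex was not tested.

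In the MSM cross, 2i lines had lower Ccnd1 and Ccne1 and higher Cdkn2a than S lines. That made 1 of the 9 genes higher and 2 lower (median 0.11), where 8.36% of all genes were called higher and 8.67% lower, with a median of -0.02. Ccnd1 read 44.9, 51.4, 22.8 and 39.6 RPKM in 2i lines 15, 2, 20 and 23, against 113 and 134 in S lines 8 and 12. Both S lines lay above all 2i lines, with a difference of -1.66 (SE 0.26, limma adjusted p = 0.0056). Ccne1 read 51.8, 86.5, 80.6 and 138 RPKM in the same 2i lines and 177 and 240 in the S lines, again without overlap, and differed by -1.28 (SE 0.26, limma adjusted p = 0.016). Cdkn2a read 56.9, 56.7, 44.4 and 23.8 RPKM against 20.9 and 13.1, and differed by 1.33 (SE 0.22, limma adjusted p = 0.0075). XY line 23 stood close to the S XX line 8.

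With 1 S line per sex, these calls rest on single libraries. Without S line 12 no call was left, with adjusted p of 0.078 for Ccnd1, 0.11 for Ccne1 and 0.066 for Cdkn2a, and without S line 8 Ccne1 (adjusted p = 0.13) and Cdkn2a (adjusted p = 0.075) were lost. Ccnd2 passed without S line 8 (-3.64, adjusted p = 0.017), Ccnd3 without 2i line 15 (0.72, adjusted p = 0.018) and Cdkn1b without 2i line 2 (1.32, adjusted p = 0.014). In the fit of all lines, Ccnd2 (-1.49, SE 0.83, adjusted p = 0.25), Ccnd3 (0.56, SE 0.20, adjusted p = 0.092), Cdkn1b (1.03, SE 0.34, adjusted p = 0.076), Cdkn1a (0.11), Ccne2 (0.12) and Cdkn2b (-0.28) did not pass. Ccnd2 read 41.6 and 15.3 RPKM in the 2i XX lines 15 and 2 and 1.12 and 0.535 in the XY lines 20 and 23, and 15.8 and 21.4 in the S lines. So in this cross the XX lines were the 2i lines with Ccnd2, while in the B6 cross it was an XY line.

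Beside these, 8 of the 16 fibroblast markers were lower in 2i than in S lines and none higher, and their part in the differences was not tested for the other genes of the cell cycle. Cdkn1c fell by 4.55 on the log2 scale (SE 0.41, limma adjusted p = 0.0011), from 49.2 and 95.9 RPKM in S lines 8 and 12 to 1.48 to 2.60 in 2i. Cdk2 (0.80), Cdkn2c (0.96), Cdkn2d (0.57) and Rbl1 (0.74) rose, and Rb1 (-0.65), Myc (-1.89) and Mdm2 (-1.0) fell. Cdk4 (-0.07), Cdk6 (-0.77), Rbl2 (0.42), E2f1 (0.38) and Trp53 (-0.62) did not pass. Of the 23 Cdk partners, pocket proteins and E2F genes 4 rose and 3 fell, of the 20 S phase genes 1 rose and none fell, of the 18 mitotic genes none rose and 1 fell, of the 23 p53 targets none rose and 8 fell, and of the 19 growth signals none rose and 8 fell.

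An XX minus XY term of the MSM-cross ESC libraries was added after the B6 difference was seen. It called none of the 9 genes (limma; 3 had an unadjusted p under 0.05), where 2.43% of all genes were called higher and 1% lower. Ccnd3 differed by 0.38 (SE 0.19, adjusted p = 0.31) and Cdkn2a by 0.74 (SE 0.21, adjusted p = 0.10), both with the sign of the B6 cross. Ccnd3 read 345 and 577 RPKM in the 2i XX lines and 311 and 391 in the XY lines, so the sexes overlapped. Ccnd2 differed by 2.44 (SE 0.78, adjusted p = 0.13), and by 3.87 without S line 8 or without S line 12. In both runs the S line left is alone in its group, so this value rests on the 2i lines only. The S lines themselves read 15.8 RPKM (XX line 8) and 21.4 RPKM (XY line 12).

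The 2i against serum effect differed between the crosses for 3 of the 9 genes, all higher in the MSM cross (9.47% of all genes were higher and 2.11% lower). These were Ccnd3 (0.97, SE 0.25, limma adjusted p = 0.025), Cdkn2a (1.12, SE 0.25, adjusted p = 0.012) and Cdkn2b (1.94, SE 0.27, adjusted p = 6.8e-04). For Cdkn2b, the B6 serum lines read 14.6 to 19.9 RPKM and the S lines 3.32 and 4.76, while the 2i lines of the crosses read 2.55 to 3.50 and 2.04 to 3.68. The 2i ranges of the crosses overlapped and the serum ranges did not. With the fibroblast share subtracted, none of the 3 passed: the differences were 0.88 for Ccnd3 (adjusted p = 0.057), 0.94 for Cdkn2a (adjusted p = 0.063) and 1.04 for Cdkn2b (adjusted p = 0.13). The missing rescaling of the remainder by itself lowers this cross difference, as the B6 serum lines have the larger share. Whether the 3 would pass with rescaling was not tested. All 16 fibroblast markers were also higher in this comparison. The calls on Ccnd3 and Cdkn2a were lost without S line 8 (adjusted p = 0.079 and 0.070) or S line 12 (0.14 and 0.057), and that on Ccnd3 without c6 (0.051) or serum line 10 (0.052) and with no filter on low values (0.072). Ccnd2 (2.69, adjusted p = 0.23) passed without c2 (3.69, adjusted p = 0.046).

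Between the 2i lines of the crosses, Ccnd3 was higher (0.54, SE 0.16, limma adjusted p = 0.030) and Ccne2 lower (-0.72, SE 0.22, adjusted p = 0.037) in the MSM cross, where 10.3% of all genes were called higher and 8.21% lower. Ccne2 read 5.99, 10.0, 5.64 and 7.86 RPKM in lines 15, 2, 20 and 23 and 13.7, 14.0, 9.04 and 13.9 in c3, c4, c2 and c6, overlapping at line 2 and c2. Each call was lost when any of 5 lines was left out, which for Ccnd3 were 2, 23, c4, c2 and c6 (adjusted p 0.055 to 0.11) and for Ccne2 15, 20, c3, c4 and c6 (adjusted p 0.063 to 0.12). Without line 20 Cdkn2a was called lower (-0.47, adjusted p = 0.036), and without c2 Ccnd2 was called higher (2.64, adjusted p = 0.031).

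In the 2i-S culture of line 15 no member passed the test. Ccnd1 read 99.7 RPKM against 44.9 in its parent 2i line, and differed by 1.19 (SE 0.35, limma adjusted p = 0.16) from the 2i group. Ccne1 read 169 against 51.8, with a difference of 1.29 (SE 0.36, adjusted p = 0.14). Cdkn2a read 32.6 against 56.9, Cdkn1b 7.96 against 27 and Ccnd2 6.34 against 41.6. None of the 9 genes passed against 2i (3 had an unadjusted p under 0.05, and 0.811% of all genes were called higher and 0.409% lower). Against S lines none passed either (none had an unadjusted p under 0.05, and 0% and 0.00744% of all genes were called). Fibroblast markers were higher in this culture than in 2i lines, with 3 of 16 called higher and none lower (median 1.73), and its fibroblast share was 1.89% against 0.160% in the parent line. The level predicted from fibroblasts was 53.6% of its Ccnd2, 34.7% of its Cdkn2b, 2.49% of its Ccnd1 and 0.247% of its Ccne1. Both comparisons rest on 1 library, which the fit takes to vary like the other groups, and its parent line is part of the 2i group.

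MEF libraries had 4 of the 9 genes higher and 2 lower than 2i lines of the same cross (median 0.31), where 29.9% of all genes were called higher and 41.2% lower, with a median of -0.23. Higher in fibroblasts were Cdkn2b, at 64.7 and 68.5 RPKM in MEF 2 and 4 against 2.04 to 3.68 in 2i (4.04, SE 0.23, limma adjusted p = 2.3e-06), and Ccnd2, at 170 and 189 against 0.535 to 41.6 (4.71, SE 0.83, adjusted p = 0.0011). Ccnd1 read 125 and 137 RPKM against 22.8 to 51.4 (1.75, SE 0.26, limma adjusted p = 4.0e-04), and Cdkn1a 245 and 314 against 114 to 141 (1.17, SE 0.19, adjusted p = 7.2e-04). Lower were Ccnd3, at 168 and 161 RPKM against 311 to 577 (-1.26, SE 0.20, limma adjusted p = 6.3e-04), and Ccne1, at 24.9 and 19.2 against 51.8 to 138 (-1.89, SE 0.26, adjusted p = 3.0e-04). In none of these 6 genes did the groups overlap. Cdkn2a read 48.9 and 47.2 RPKM, within the 23.8 to 56.9 of the 2i lines (0.15, SE 0.22, adjusted p = 0.55). Cdkn1b (-0.45, adjusted p = 0.26) passed only without 2i line 2 (-0.74, adjusted p = 0.024).

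Fibroblasts also had lower levels of the genes that follow G1. Of the 20 S phase genes 19 fell and none rose (median -2.08), and of the 18 mitotic genes 17 fell and none rose (median -1.71). Of the 23 Cdk partners, pocket proteins and E2F genes 4 rose and 15 fell: Cdk2 (-2.18, SE 0.14, limma adjusted p = 4.8e-06), Rbl1 (-1.05), E2f1 (-0.89), Cdk4 (-0.45) and Cdkn2d (-0.42) fell, and Cdkn1c (2.87), Cdkn2c (1.73), Rb1 (0.92) and Rbl2 (0.85) rose. Cdk6 did not pass (0.13, adjusted p = 0.70). Myc (2.55) and Mdm2 (0.98) rose and Trp53 fell (-0.95).

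The fibroblasts derived from line 15 (2i-MEF) are a single library. Cdkn2b read 97.2 RPKM, Cdkn2a 88.6, Cdkn1a 173, Cdkn1b 25 and Ccnd2 118. None of the 9 genes passed against the MEFs (limma; 3 had an unadjusted p under 0.05, and 0.126% of all genes were called higher and 0.327% lower). Ccnd1 came nearest, at 30.9 RPKM against 125 and 137 (-2.04, SE 0.36, adjusted p = 0.071), which lies within the range of the 2i ESC lines. Cdkn2a stood above both MEFs, with a difference of 0.87 (SE 0.31, adjusted p = 0.33).

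Over the 16 B6 libraries, the genes whose log2 profile was most like each member were listed, out of 13150 tested, as a description. Medium, sex and fibroblast share are common to all points. Ccnd3 was most like the X-linked genes Dcaf12l1 (Pearson r = 0.97) and Dusp9 (0.97) and the autosomal Id2 (0.96), and Cdkn2a like Galnt16 (0.96), Fcgrt (0.95) and Pef1 (0.93). Cdkn2b was most like 9530068E07Rik (0.98), Igfbp5 (0.97) and Flrt2 (0.97). Ccnd1 followed Gap43 (0.94), Fjx1 (0.90) and Sdc1 (0.90), Ccnd2 followed Cnnm3 (0.91), Mink1 (0.89) and Rab11fip3 (0.89), and Ccne1 followed Grk5, Flna and Esrp2 (each 0.90). The likenesses of Cdkn1b (Cox7a2l, Pfkm and Ctsc, each 0.87) and Cdkn1a (Trim35, Ddit4l and Tmub2, each 0.84) were lower. Among the 9 genes themselves, Ccnd1 and Ccne1 were the closest pair (r = 0.82), followed by Ccnd3 and Cdkn2a (0.74). Cdkn1b ran opposite to Ccnd1 (-0.71), Ccne1 (-0.71) and Ccnd3 (-0.69).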

How the data were processed

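RNA-seq of 26 libraries was used, made with a stranded mRNA kit per the labels' protocols. The authors deposited RPKM per gene, with no read counts used here, so depth is unknown and no counting interval is given. TopHat2 2.1.0, Bowtie2 2.2.5, cutadapt 1.9.1, Cufflinks 2.2.1 and mm10 are named per the submitters' processing notes; the annotation release and the tool that made the RPKM are not given in the sources used here. No column was left unused, and no pair of libraries held identical values.

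From these values log2(RPKM + 1) was computed, which understates changes of low genes. A gene entered a fit if 2 or more of its libraries reached 1 RPKM. The test was limma 3.58.1 (R 4.3.3), with an intensity trend in the variance prior and Benjamini-Hochberg adjustment over all genes of the fit. Separate fits covered the B6 cross (16 libraries, 13150 genes, medium by sex means), the MSM cross (10 libraries, 13443 genes) and the 2i and serum lines of both crosses (13330 genes). The fits were tested on simulated data. Labels name separate lines, and p-values measure the spread between these lines. Tables were made in Python (3.11.15) with pandas (2.3.3) on numpy (2.4.6), and figures with matplotlib (3.10.9).

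The members and lists were chosen with earlier results of these data known. The text names all 9 members, up to 4 called genes of a list by size of change, 13 Cdk, inhibitor, pocket protein and p53 or Myc genes whatever their values, and the 3 genes most correlated with each member, of which the result for Ccne2 is not reported here. Lists held 23 Cdk partners, pocket proteins and E2F genes, 20 S phase genes, 18 mitotic genes, 23 p53 targets, 16 regulators of the Ink4a/Arf locus, 19 growth signals, 16 fibroblast markers and 11 pluripotency markers. Alternatives were a pseudocount of 0.5, other filters, quantile and median-of-ratios scaling, no trend, fewer groups in the fit, fibroblast subtraction, each line left out and a replicate block.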

Additional observations from a re-analysis of the deposited data

Results flagged for a closer look

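Of 45 groups of 4 lines checked over the 9 genes, 6 held a library whose gap to the others took up nearly the whole range of its group. The limit used flags about 1 in 20 groups of normally distributed values. These groups pool XX and XY lines on the RPKM scale, so that rate need not hold here. Ccnd2 accounts for 3 of the 6. The 2i XY line c2 read 15.0 RPKM against 0.0450 to 0.208 in the other 2i lines, the t2i XY line t6 read 26.4 against 0.499 to 1.26, and the a2i XY line a1 read 13.9 against 0.0854 to 0.807. Line a1 also stood apart in Ccnd1, at 54.6 RPKM against 36.6 to 39.5. In Ccne2, line c2 read 9.04 RPKM against 13.7 to 14.0, and the serum XX line 17 read 18.3 against 9.23 to 10.6.

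For 4 differences, an interaction term passed the test, and each call was lost under some alternatives. The effect of t2i against 2i on Cdkn2a was higher in XX than in XY lines by 1.14 (log2, limma adjusted p = 0.038), a call lost with no filter (0.093), under quantile (0.061) or median-of-ratios scaling (0.053) and without any of 7 of the 8 lines. The effect of 2i against serum was higher in the MSM than in the B6 cross by 0.97 for Ccnd3 (adjusted p = 0.025), by 1.12 for Cdkn2a (adjusted p = 0.012) and by 1.94 for Cdkn2b (adjusted p = 6.8e-04). With the fibroblast share subtracted these were 0.88 (adjusted p = 0.057), 0.94 (adjusted p = 0.063) and 1.04 (adjusted p = 0.13). The remainder was not rescaled, which by itself lowers these values.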

How the results depend on the processing

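Depth is unknown for RPKM values, and 4 to 8 residual degrees of freedom limit what the fits resolve. Over 45 called and 117 uncalled differences of the 9 genes, 720 and 1629 values came from alternatives, and no called difference changed sign. A pseudocount of 0.5, a filter on 4 libraries and no variance trend changed no call. The cause of each change below was not tested, other than that leaving out a line leaves fewer samples.

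Counts of called members moved by smaller steps in some comparisons when lines were left out. They ranged from 2 to 4 in t2i against 2i and 2 to 3 in a2i against 2i. The range was 7 to 8 in a2i against serum, 4 to 5 in XX against XY (B6) and 6 to 7 in MEF against 2i. Larger moves were as follows, and small moves under other settings are not listed. With the replicate block the a2i against 2i count went from 3 to 1. The numbers were checked only for c2 with t2 and c6 with t6, which give a single correlation of deviations (0.0023), so the numbers were not taken as pairs. The block ended the calls on Cdkn1a in t2i and a2i and on Cdkn2b in a2i, and over all genes calls went from 551 higher and 511 lower to 304 and 250 in t2i, and from 1044 and 769 to 719 and 473 in a2i. No filter took the count from 3 to 0 in 2i against S, from 2 to 0 between the 2i lines of the crosses and from 1 to 0 in the sex difference of t2i against 2i, as did quantile and median-of-ratios scaling for the last. Median-of-ratios scaling gave 1 in place of 0 in the sex differences of 2i against serum and a2i against 2i. Fibroblast subtraction, without rescaling of the remainder, took the cross difference of 2i against serum from 3 to 0. With lines left out the counts ranged from 0 to 2 in a2i against t2i, 0 to 1 in the sex difference of t2i against 2i, 0 to 4 in 2i against S, 0 to 1 in XX against XY (MSM), 1 to 4 in the cross difference and 0 to 2 between the 2i lines of the crosses. Under quantile normalization calls over all genes went from 2010 higher and 3747 lower to 3755 and 2517 in t2i against serum, and from 1636 and 3282 to 3345 and 2234 in a2i against serum.

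Values changed sign 101 times, 23 of them under other settings, where subtraction turned 2 uncalled values into calls (Cdkn1a against serum). With the replicate block, a2i against 2i turned to 0.11 for Ccnd3, 0.0908 for Ccne1, -0.0422 for Cdkn1b, and a2i against t2i turned to 0.27 for Ccnd2, 0.22 for Ccnd3, -0.29 for Cdkn2a, 0.14 for Cdkn2b. Under quantile normalization, a2i against 2i turned to 0.00186 for Ccne1, a2i against t2i turned to 0.00166 for Ccnd3, t2i against serum turned to 0.11 for Ccne2, the sex difference of 2i against serum turned to 0.0164 for Ccnd1, the sex difference of a2i against 2i turned to -0.0381 for Cdkn2b, 2i-S against S turned to -0.0164 for Cdkn1b, and the cross difference of 2i against serum turned to -0.23 for Ccne2. With the fibroblast share subtracted, t2i against serum turned to 0.0623 for Ccne2, 0.57 for Cdkn1a, a2i against serum turned to 0.41 for Cdkn1a, the sex difference of 2i against serum turned to -0.63 for Cdkn2b, and the cross difference of 2i against serum turned to -0.10 for Ccne2. Under median-of-ratios scaling, the sex difference of 2i against serum turned to 0.0385 for Ccnd1, 2i-S against S turned to -0.0404 for Ccne1, -0.00113 for Cdkn1b, and the cross difference of 2i against serum turned to -0.0585 for Ccne2.

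With lines left out, 44 uncalled differences changed sign, 78 times in all. In 2i against serum the range was Ccne2 -0.10 to 0.27. For t2i against 2i it was Ccnd2 -0.33 to 1.64, Ccnd3 -0.12 to 0.0379, Ccne2 -0.42 to 0.0636. In a2i against 2i the range was Ccnd1 -0.0141 to 0.22, Ccnd2 -0.76 to 1.21, Ccnd3 -0.16 to 0.00137, Ccne1 -0.0925 to 0.0557. For a2i against t2i it was Ccnd2 -1.33 to 0.47, Ccnd3 -0.10 to 0.0232, Cdkn2a -0.0883 to 0.12, Cdkn2b -0.33 to 0.0146. In t2i against serum the range was Ccne2 -0.34 to 0.15, Cdkn1a -0.22 to 0.0446. For XX against XY (B6) it was Ccnd1 -0.00797 to 0.11, Ccne1 -0.0100 to 0.0934. In the sex difference of 2i against serum the range was Ccnd1 -0.13 to 0.0746, Ccne2 -0.56 to 0.18, Cdkn1a -0.46 to 0.0707, Cdkn1b -0.38 to 0.0628, Cdkn2b -0.0917 to 0.23. For the sex difference of t2i against 2i it was Ccnd2 -2.55 to 1.39, Ccne1 -0.38 to 0.0381, Ccne2 -0.23 to 0.75, Cdkn1b -0.38 to 0.19, Cdkn2b -0.13 to 0.39. In the sex difference of a2i against 2i the range was Ccnd2 -2.20 to 1.73, Cdkn2b -0.18 to 0.51. For 2i against S it was Ccnd2 -3.64 to 0.65, Ccne2 -0.22 to 0.47, Cdkn1a -0.25 to 0.48, Cdkn2b -0.66 to 0.10. In 2i-S against 2i the range was Ccnd3 -0.46 to 0.0726. For 2i-S against S it was Ccne1 -0.0643 to 0.15, Cdkn1a -0.51 to 0.22, Cdkn2b -0.65 to 0.10. In MEF against 2i the range was Cdkn2a -0.0434 to 0.33. For 2i-MEF against MEF it was Ccne2 -0.15 to 0.0380. In XX against XY (MSM) the range was Cdkn1b -0.68 to 0.0864, Cdkn2b -0.13 to 0.34. For the cross difference of 2i against serum it was Ccne2 -0.31 to 0.38, Cdkn1a -0.65 to 0.0788. In MSM against B6 2i lines the range was Ccnd1 -0.13 to 0.21, Cdkn1b -0.38 to 0.19.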
